A study of Mus musculus with 6 samples.

Results

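The TNF ligand and receptor superfamilies were followed in a line of mouse FRCs (fibroblastic reticular cells), fibroblasts that form the scaffold of lymph nodes. Members were the genes whose symbol starts with Tnfsf or Tnfrsf, together with Tnf, Lta, Ltb, Ltbr, Fas, Fasl, Cd40, Cd40lg, Cd27, Cd70, Ngfr and Eda2r. This gave 45 of the 55367 symbols counted, namely 17 ligands, 26 receptors and 2 further transcripts of the Tnfsf12 and Tnfsf13 locus. Of these, 23 had enough counts to be tested. The FRC line was kept for 96 h in conditioned medium, that is, medium in which other cells had been kept for 24 h, renewed every 48 h and supplemented with 2% serum and 1% penicillin-streptomycin. The 4T1 group received medium of 4T1 cells, the 67NR group medium of 67NR cells and the control group medium of the FRC line itself, with 2 libraries in each group. 4T1 and 67NR are mouse mammary carcinoma lines of common origin, 4T1 being known as metastatic and 67NR as non-metastatic. All 3 groups thus received conditioned medium, a single FRC line was used, and no library of cells in fresh medium was analysed here. No label states that the libraries of 1 medium came from separate cultures. The p-values therefore measure the spread between these libraries only, and that spread may be technical.

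TNF superfamily ligands are mostly membrane proteins of immune cells that also occur in shed form, and they bind receptors on neighbouring cells in clusters. Some receptors carry a death domain and can recruit adaptors that lead either to NF-kB signalling or to caspase activation, while others bind TRAF adaptors and signal to NF-kB without one. Decoy receptors bind ligand and pass on no signal. In lymph nodes the lymphotoxin beta receptor (Ltbr) on stromal cells is known for its part in the differentiation of FRCs, and RANKL (Tnfsf11) for its part in lymph node formation.

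Total counts were 13.6 to 21.8 M per library (M, 1e6 counts), and 1 count was worth 0.0463 to 0.0743 CPM (counts per 1e6 counts), depending on the library. Mitochondrial transcripts took 2.11% and 2.37% of counts in 4T1 medium, 1.96% and 2.28% in 67NR medium, and 1.322% and 1.87% in control medium. Of 13 fibroblast and FRC markers, 9 had counts, among them Pdpn and Pdgfrb. Thy1, Ccl19, Ccl21a and Cxcl13 had 0 counts in every library, so these defining FRC transcripts were not detected in the line. The summed level of the 13 markers ranged from 16604 to 17124 CPM in 4T1 medium, from 26770 to 28218 CPM in 67NR medium and from 21849 to 22907 CPM in control medium. Most of this sum was Col1a1, with means of 6911, 15219 and 13817 CPM in 4T1, 67NR and control medium, and Col3a1, with 8722, 11283 and 7705 CPM. Other markers were ordered differently, such as Vcam1 at 627, 208 and 206 CPM, Pdgfra at 128, 61.6 and 33.7 CPM, and Pdgfrb at 218, 505 and 370.4 CPM in 4T1, 67NR and control medium. The 11 leukocyte markers together had 3.32 to 3.38 CPM in 4T1 medium, 9.63 to 10.1 CPM in 67NR medium and 5.04 to 6.99 CPM in control medium. Of these markers, 8 had at most 3 counts over all 6 libraries. Most of the leukocyte sum was Lyz2, with means of 2.04, 8.99 and 5.25 CPM in 4T1, 67NR and control medium. Cd68 was ordered differently, at 1.19, 0.780 and 0.728 CPM. Endothelial markers summed to at most 3.10 CPM and epithelial ones to at most 2.39 CPM in any library.

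The FRC line carried the receptors of the superfamily far more than its ligands. The 26 receptors together took 895 and 913 CPM in the 4T1 libraries, 634 and 609.6 CPM in the 67NR libraries, and 665 and 647 CPM in the control libraries. The 17 ligands together took 34.1 and 38.0 CPM in 4T1 medium, 24.0 and 23.9 CPM in 67NR medium, and 21.7 and 19.8 CPM in control medium. For both classes the 4T1 libraries were above all others. Per kilobase of exon, Tnfrsf1a was the most abundant receptor in every medium, at 102 ± 4.74 CPM per kb in 4T1, 55.9 ± 2.32 in 67NR and 46.6 ± 0.174 in control medium (SD, n = 2 each). Ltbr had nearly the same level as Tnfrsf1a in control medium, at 45.5 ± 0.109 CPM per kb. Fas came second to Tnfrsf1a in 4T1 medium, at 63.7 ± 0.0154 CPM per kb (SD, n = 2) and close to Ltbr at 62.8 ± 0.521, 4th in 67NR medium (21.7) and 5th in control medium (27.0). Tnfsf12 (TWEAK) was the most abundant ligand in each medium, at 12.3, 12.2 and 9.61 CPM per kb in 4T1, 67NR and control medium.

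**Figure D1:**
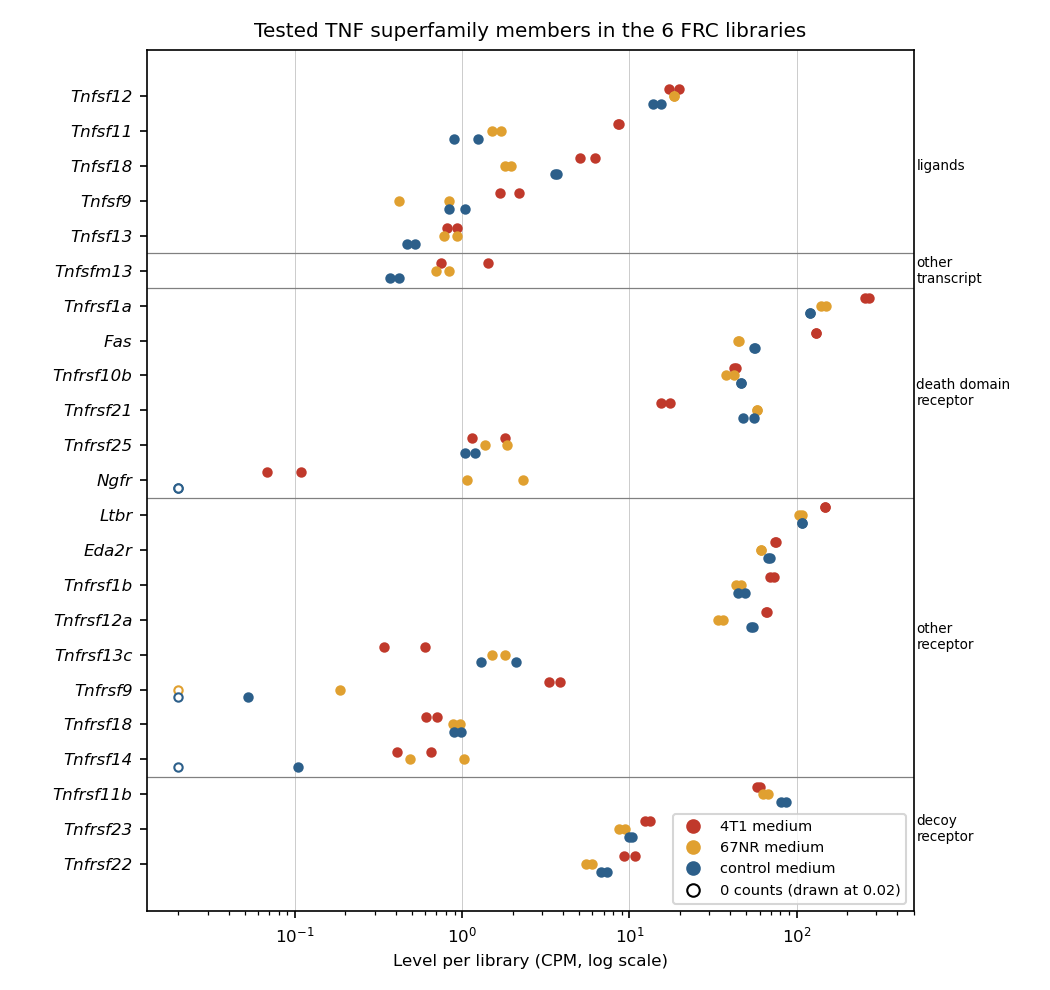
Level of each of the 23 tested members in each library, in CPM on a log axis, grouped by role, with 1 point per library and open points for 0 counts. Receptors such as Tnfrsf1a, Ltbr and Fas sit above 40 CPM in every library, while Tnfsf12 is the only ligand above 10 CPM. Tnfrsf9 stands out for 4T1 medium and Ngfr for 67NR medium.

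In 4T1 medium against control medium, 14 of the 23 tested members were higher and 3 lower at an adjusted p under 0.05 (edgeR quasi-likelihood test, adjusted over 15055 genes). That is 73.9% of the tested members, beside 39.1% of all genes tested (19.9% higher and 19.2% lower). Ligands led by Tnfsf11, the receptors Tnfrsf9, Fas, Tnfrsf1a and Tnfrsf1b, and the lymphotoxin receptor Ltbr were among those that rose, and Tnfrsf21, Tnfrsf13c and Tnfrsf11b fell. The median log2 fold change of the tested members was 0.51, beside 0.01 over all genes. The other 22 members were not tested. Tnfrsf9 passed the filter on low counts through 4T1 medium alone, Ngfr through 67NR medium alone, and Tnfrsf14, Tnfsf13 and Tnfsfm13 through both tumour media with no control library over the cutoff, so the counts describe the tested members only. Of the 17 calls, 8 held in every alternative analysis that gave a value (Tnfsf11, Tnfrsf1a, Ltbr, Fas, Tnfrsf11b, Tnfrsf1b, Tnfrsf21 and Tnfrsf9). The Wald test of DESeq2 called 7 members higher, and the count was 8 without 4T1 replicate 2, 8 without control replicate 1 and 7 without control replicate 2.

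In 67NR medium against control medium, 4 tested members were higher (Tnfsf12, Tnfrsf1a, Ngfr and Tnfrsf14) and 4 lower (Tnfsf18, Fas, Tnfrsf11b and Tnfrsf12a). These 8 are 34.8% of the tested members, beside 27.6% of all genes tested (13.0% higher and 14.6% lower). The median log2 fold change was -0.02 for the members and 0.00 for all genes. The Ngfr and Tnfrsf12a calls held in every alternative that gave a value. The count of higher members was 1 without 67NR replicate 1, 2 without control replicate 1 and 1 without control replicate 2, and the count of lower members was 2 without 67NR replicate 1 and 2 without control replicate 1. Both tumour media were set against the same 2 control libraries, so the comparisons with control are not independent of each other.

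Set directly against each other, 4T1 medium gave 12 higher and 3 lower members than 67NR medium, 65.2% of those tested beside 43.4% of all genes (23.5% higher and 19.9% lower). The higher ones were 3 ligands (Tnfsf11, Tnfsf18 and Tnfsf9) and 9 receptors, and the lower ones were Tnfrsf21, Tnfrsf13c and Ngfr. The median log2 fold change was 0.48 for the members and 0.03 for all genes. Of the 15 calls, 14 held in every alternative that gave a value. The exception was Tnfsf9, with an adjusted p of 0.0506 without 67NR replicate 1, at most 0.0506 over its alternatives. With 2 libraries a group, groups without overlap were common over all genes tested. They were seen for 10145, 10173 and 10550 of the 15055 genes in 4T1 against control, 67NR against control and 4T1 against 67NR medium. A lack of overlap given below for a member is thus no mark of that member. In bulk RNA, fewer cells that express a gene and less RNA per cell cannot be told apart.

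**Figure D2:**
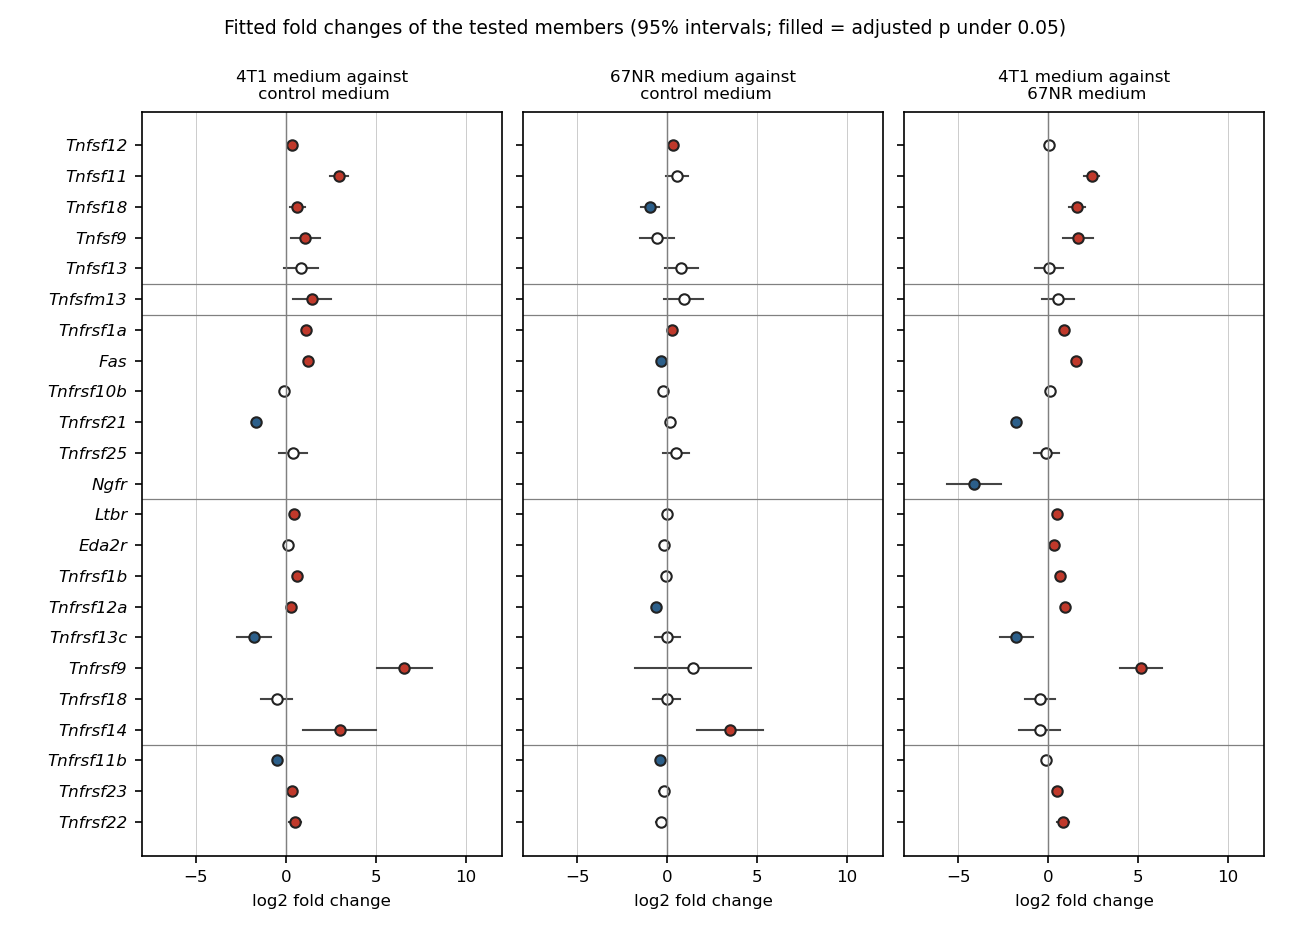
Fitted log2 fold change of each tested member in the 3 comparisons, with 95% intervals (lines). Filled points have an adjusted p under 0.05, red for higher and blue for lower, and Ngfr is not drawn against control medium, where it had 0 counts. In the comparison of 67NR with control medium most points are open and near 0, while both panels of 4T1 medium have filled points on the right for Tnfsf11, Tnfrsf9, Fas and Tnfrsf1a and on the left for Tnfrsf21 and Tnfrsf13c.

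Among the 17 ligands, 5 were tested, and 4 of them rose in 4T1 medium against control medium with none falling, beside 19.9% of all genes higher. Of these 4 calls, those of Tnfsf12, Tnfsf18 and Tnfsf9 were lost in some alternatives. Tnfsf11, also called RANKL, is the ligand of RANK and the main inducer of osteoclasts. Tnfsf11 (chr14:78277445-78308043, minus strand, GRCm38) had 8.65 and 8.50 CPM in 4T1 medium, 1.71 and 1.51 CPM in 67NR medium, and 1.25 and 0.892 CPM in control medium. Both 4T1 libraries were well above the other 4. Its log2 fold change was 2.96 (SE 0.23, adjusted p 3.44e-07 by edgeR's quasi-likelihood test) against control and 2.40 (SE 0.20, adjusted p 6.02e-07) against 67NR medium. For 67NR against control it was 0.55, with a 95% interval of -0.06 to 1.17 and an adjusted p of 0.173 (0.0451 with all libraries thinned to equal depth, and 0.0451 to 0.494 over all alternatives). RANK itself (Tnfrsf11a) had at most 5 counts in any library. Osteoprotegerin (Tnfrsf11b), the secreted decoy that binds RANKL, had 60.6 and 58.0 CPM in 4T1 medium, 67.2 and 62.5 CPM in 67NR medium, and 86.9 and 80.4 CPM in control medium. It fell by 0.50 on the log2 scale in 4T1 medium (SE 0.08, adjusted p 0.000172) and by 0.37 in 67NR medium (SE 0.07, adjusted p 0.00245), both against control. The second of these calls was lost without 67NR replicate 2 and without control replicate 1, each at an adjusted p of 0.0526, the highest over its alternatives. Per length, the Tnfsf11 level was 18.0% and 18.5% of the Tnfrsf11b level in the 4T1 libraries, 3.21% and 3.04% in the 67NR libraries, and 1.81% and 1.40% in the control libraries. Decoy transcript thus outnumbered ligand transcript in all 6 libraries.

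Tnfsf18 (GITRL) is a costimulatory ligand for T cells whose receptor is Tnfrsf18 (GITR). It had 5.07 and 6.21 CPM in 4T1 medium, 1.81 and 1.95 CPM in 67NR medium, and 3.69 and 3.57 CPM in control medium. The 3 groups did not overlap, with 4T1 highest and 67NR lowest. The log2 fold change was 1.59 for 4T1 against 67NR medium (SE 0.21, adjusted p 3.53e-05 by edgeR), 0.64 for 4T1 against control (SE 0.19, adjusted p 0.0185) and -0.95 for 67NR against control (SE 0.22, adjusted p 0.00627). The rise over control was lost without 4T1 replicate 2 (adjusted p 0.143), without either control library (0.0857 and 0.075 without replicates 1 and 2) and with DESeq2, within an adjusted p range of 0.00797 to 0.143. The fall in 67NR medium was lost without 67NR replicate 1 (0.0551) and without control replicate 1 (0.0505), within a range of 0.000335 to 0.0551. GITR itself was low, at 0.608 and 0.708 CPM in 4T1 medium, 0.973 and 0.876 CPM in 67NR medium, and 0.986 and 0.892 CPM in control medium, and passed no test. Antisense gene Gm16008 shares 27.2% of its exon bases, and the strand setting of the counting is not given in the sources used here.

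Tnfsf9 (4-1BBL), the ligand of Tnfrsf9, had 1.69 and 2.18 CPM in 4T1 medium, 0.417 and 0.827 CPM in 67NR medium, and 0.831 and 1.04 CPM in control medium. Both 4T1 libraries were above the other 4. Gm11110 on the opposite strand shares 14.9% of the exon bases of Tnfsf9, and the strand setting of the counting is not given. The log2 fold change of Tnfsf9 was 1.08 over control (SE 0.37, adjusted p 0.0339 by edgeR) and 1.65 over 67NR medium (SE 0.37, adjusted p 0.00308). With the Wald test of DESeq2 (adjusted p 0.16) and at equal depth (0.14 by edgeR) the call over control was lost. The call over control was lost without 4T1 replicate 2 (adjusted p 0.194), without control replicate 1 (0.216) and without control replicate 2 (0.0765), within a range of 0.0132 to 0.216. Tnfsf12 (TWEAK), the ligand of Tnfrsf12a, had 17.3 and 19.8 CPM in 4T1 medium, 18.4 and 18.4 CPM in 67NR medium, and 15.4 and 13.7 CPM in control medium. It was higher than control in both tumour media, by 0.35 in 4T1 (SE 0.11, adjusted p 0.0239) and by 0.33 in 67NR medium (SE 0.11, adjusted p 0.036) on the log2 scale. The tumour media did not differ beyond their spread (0.02, 95% interval -0.21 to 0.24). Both calls over control were lost with the Wald test of DESeq2 (adjusted p 0.11 in 4T1 and 0.13 in 67NR medium). At equal depth the 67NR call was lost as well (0.0501 by edgeR). The 4T1 call was lost without 4T1 replicate 2 (0.158) or control replicate 2 (0.149), within a range of 0.0091 to 0.158. The 67NR call was lost without any 1 of its 4 libraries (0.069 to 0.218), within a range of 0.0152 to 0.218.

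Tnfsf13 (APRIL), a survival factor of plasma cells, averaged 0.869 ± 0.0812 CPM in 4T1, 0.853 ± 0.105 CPM in 67NR and 0.494 ± 0.0375 CPM in control medium (SD, n = 2 each) and passed no test. The read-through transcript Tnfsfm13, which joins Tnfsf12 and Tnfsf13, had 0.744 and 1.42 CPM in 4T1 medium, 0.695 and 0.827 CPM in 67NR medium, and 0.415 and 0.372 CPM in control medium. Its rise in 4T1 medium over control was 1.46 on the log2 scale (SE 0.48, adjusted p 0.0286 by edgeR). This call was lost with the Wald test of DESeq2 (adjusted p 0.134) and at equal depth (0.0797 by edgeR). Without 4T1 replicate 2 the adjusted p was 0.312, without 67NR replicate 2 it was 0.0504, without control replicates 1 and 2 it was 0.134 and 0.115, and over all alternatives it ranged from 0.0138 to 0.312. Tnfsfm13 shares 48.3% of the exon bases of Tnfsf12 and 60.0% of those of Tnfsf13, so the division of reads among these 3 genes is uncertain.

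All 6 death domain receptors were tested, and in 4T1 medium against control 2 rose (Tnfrsf1a and Fas), 1 fell (Tnfrsf21) and 3 did not pass, beside 39.1% of all genes called in either direction. Tnfrsf1a (TNFR1, chr6:125349362-125362484), the widely expressed receptor for TNF, had 255 and 272 CPM in 4T1 medium, 149 and 141 CPM in 67NR medium, and 121 and 120.3 CPM in control medium. Each group stood apart from the others, 4T1 highest and control lowest. Its log2 fold change was 1.13 for 4T1 against control (SE 0.07, adjusted p 2.74e-08 by edgeR), 0.87 for 4T1 against 67NR medium (SE 0.07, adjusted p 2.63e-07) and 0.26 for 67NR against control (SE 0.07, adjusted p 0.01). The last call was lost without 67NR replicate 1 (adjusted p 0.147) and without control replicates 1 (0.0776) or 2 (0.0797), within a range of 0.00131 to 0.147. Its ligand genes Tnf and Lta had 0 counts in every library. Tnfrsf1b (TNFR2), the TNF receptor without a death domain, had 69.5 and 73.2 CPM in 4T1 medium, 46.5 and 43.5 CPM in 67NR medium, and 49.4 and 44.4 CPM in control medium. It rose by 0.60 over control (SE 0.08, adjusted p 6.06e-05) and by 0.67 over 67NR medium (SE 0.08, adjusted p 1.6e-05). Per length, Tnfrsf1b stood at 18.4% ± 0.187 of Tnfrsf1a in 4T1 medium, 21.1% ± 0.123 in 67NR medium and 26.4% ± 1.88 in control medium (SD, n = 2 each).

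Fas (CD95, chr19:34290666-34327772), the receptor through which Fas ligand triggers apoptosis, had 131 and 131 CPM in 4T1 medium, 44.3 and 45.1 CPM in 67NR medium, and 56.0 and 55.4 CPM in control medium. The groups did not overlap, and 67NR was the lowest. Its log2 fold change was 1.24 for 4T1 against control (SE 0.07, adjusted p 1.17e-08 by edgeR) and 1.56 for 4T1 against 67NR medium (SE 0.07, adjusted p 1.17e-09). For 67NR against control it was -0.32 (SE 0.07, adjusted p 0.00418), a call lost without 67NR replicate 1 at an adjusted p of 0.0617, within a range of 0.000766 to 0.0617. Fas ligand (Fasl) had 2 counts in 1 library of 67NR medium and 0 elsewhere.

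Tnfrsf21 (DR6, chr17:43016555-43089189), a death domain receptor known from neurons and lymphocytes, went the other way. It had 15.3 and 17.5 CPM in 4T1 medium, 57.6 and 58.2 CPM in 67NR medium, and 55.3 and 47.6 CPM in control medium. Both 4T1 libraries were well under the other 4. It fell by 1.65 on the log2 scale against control (SE 0.10, adjusted p 3.73e-08 by edgeR) and by 1.81 against 67NR medium (SE 0.10, adjusted p 1.13e-08). For 67NR against control the log2 fold change was 0.16 (95% interval -0.02 to 0.35, adjusted p 0.185). Per length it was 9th among the receptors in 4T1 medium (4.00 CPM per kb) and 6th in 67NR and control medium (14.1 and 12.5 CPM per kb).

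Ngfr (p75NTR, chr11:95568818-95587735), the low-affinity neurotrophin receptor, had 1 and 2 counts in 4T1 medium, 50 and 22 counts in 67NR medium, and 0 counts in both control libraries. In CPM these were 0.0676 and 0.109 in 4T1 medium and 2.32 and 1.07 in 67NR medium. Ngfr was thus at least 18.6-fold higher in 67NR than in control medium, computed against 3 counts over the control group (adjusted p 0.000283 by edgeR). That bound was 11.7-fold without 67NR replicate 1, 7.66-fold without control replicate 1 and 10.97-fold without control replicate 2. The 67NR libraries had 18.9 times the level of the 4T1 libraries (95% counting interval 6.21 to 93.7, adjusted p 0.000405), and 11.8 times without 67NR replicate 1 (3.55 to 61.7). Ngfr entered the tests through 67NR medium alone, the group where it was high. Tnfrsf10b, the mouse TRAIL receptor, averaged 42.9 ± 0.893 CPM in 4T1, 40.01 ± 2.91 CPM in 67NR and 46.6 ± 0.148 CPM in control medium (SD, n = 2 each) and passed no test. For 67NR against control its adjusted p was 0.0554, under 0.05 in 5 alternatives and between 0.0204 and 0.389 over all. Among these 5 were the fits without 4T1 replicate 1 (0.0242) and without 4T1 replicate 2 (0.0245). Its own ligand Tnfsf10 (TRAIL) had 3 and 1 counts in 4T1, 9 and 0 in 67NR and 0 in control medium. Stretches shared with 160 other genes cover up to 12.7% of a Tnfrsf10b transcript, depending on the gene. Tnfrsf25 (DR3) had 1.15 to 1.80 CPM in 4T1, 1.36 to 1.85 CPM in 67NR and 1.04 to 1.19 CPM in control medium and passed no test.

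**Figure D3:**
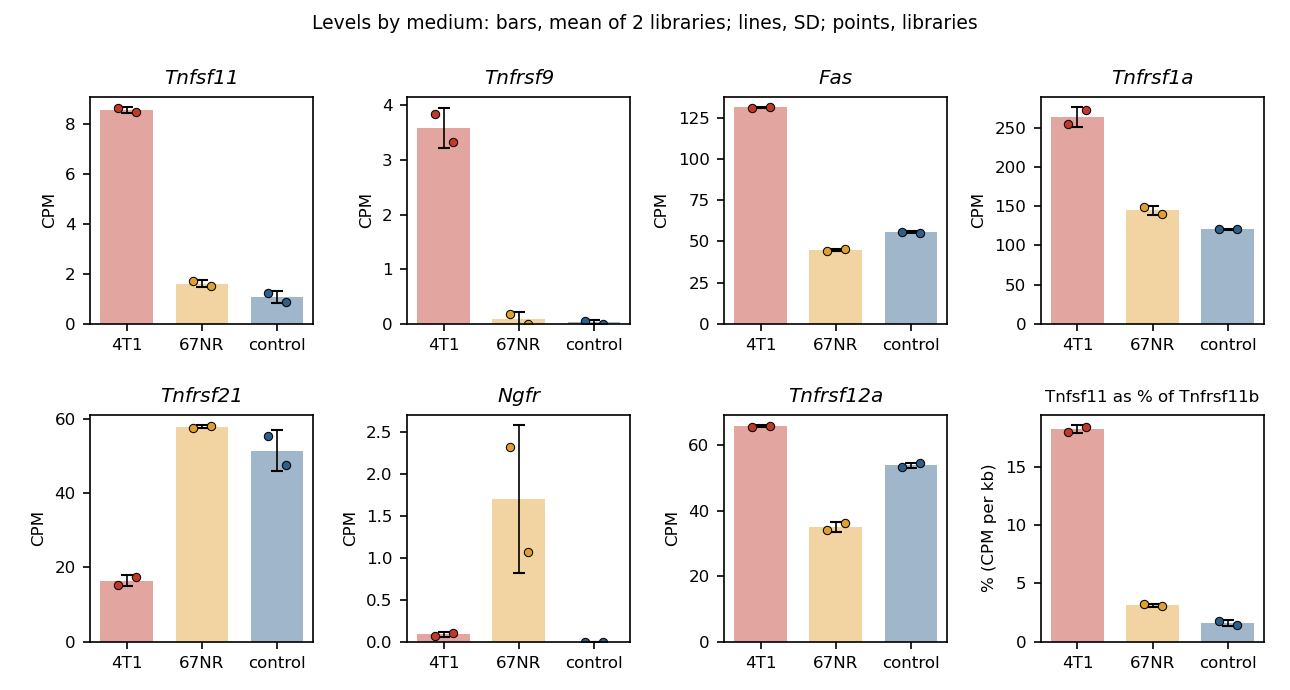
Level of 7 members by medium in CPM, and the Tnfsf11 level as a percentage of the Tnfrsf11b level per length, with bars for means, lines for SD and points for the 2 libraries. Tnfsf11, Tnfrsf9, Fas and Tnfrsf1a are highest in 4T1 medium, Tnfrsf21 is lowest there, and Ngfr is seen mainly in 67NR medium, where its libraries had 2.32 and 1.07 CPM.

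Of the 8 tested receptors that have no death domain and are not decoys, 5 rose in 4T1 medium against control (Ltbr, Tnfrsf1b, Tnfrsf12a, Tnfrsf9 and Tnfrsf14), 1 fell (Tnfrsf13c) and 2 did not pass, beside 19.9% of all genes higher and 19.2% lower. The calls of Tnfrsf12a, Tnfrsf14 and Tnfrsf13c were lost in some alternatives. Tnfrsf9 and Tnfrsf14 passed the filter on low counts with no control library over the cutoff, so these counts describe the tested receptors only. Ltbr (chr6:125306571-125313885), the receptor for lymphotoxin and LIGHT, had 149 and 147 CPM in 4T1 medium, 108 and 104 CPM in 67NR medium, and 107 and 107 CPM in control medium. The 67NR and control libraries overlapped, and both 4T1 libraries were above them. It rose by 0.46 over control (SE 0.06, adjusted p 7.61e-05 by edgeR) and by 0.48 over 67NR medium (SE 0.06, adjusted p 3.97e-05) on the log2 scale. For 67NR against control the log2 fold change was -0.02, with a 95% interval of -0.15 to 0.12. Its ligand genes were nearly without counts, with Ltb at 1 count in all, and Lta and Tnfsf14 (LIGHT) at 0. Ltbr lies 35.5 kb from Tnfrsf1a on chromosome 6.

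Tnfrsf12a (Fn14), the TWEAK receptor, which is known to be induced by growth factors and injury, had 65.6 and 66.0 CPM in 4T1 medium, 34.0 and 36.2 CPM in 67NR medium, and 53.3 and 54.5 CPM in control medium. The 3 groups did not overlap. It rose by 0.29 on the log2 scale in 4T1 medium against control (SE 0.07, adjusted p 0.00641 by edgeR) and fell by 0.62 in 67NR medium against control (SE 0.07, adjusted p 4.55e-05). The difference between 4T1 and 67NR medium was 0.91 (SE 0.07, adjusted p 4.65e-07). The rise in 4T1 medium was lost without control replicate 1 (adjusted p 0.0802), within a range of 0.00322 to 0.0802. Eda2r (XEDAR), the receptor for the A2 form of ectodysplasin, had 75.2 and 74.6 CPM in 4T1 medium, 61.6 and 61.2 CPM in 67NR medium, and 67.7 and 68.8 CPM in control medium. It was higher in 4T1 than in 67NR medium by 0.29 (SE 0.07, adjusted p 0.0035) and passed neither test against control (adjusted p 0.134 for 4T1 and 0.113 for 67NR medium). The 67NR test passed in the fit of the 2 groups alone (0.0498), without 4T1 replicate 1 (0.0461) and without 4T1 replicate 2 (0.046), within a range of 0.046 to 0.355.

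Tnfrsf9 (4-1BB or CD137, chr4:150914562-150946102), a costimulatory receptor best known from activated T cells, was counted almost only in 4T1 medium. It had 57 and 61 counts in the 4T1 libraries, 4 and 0 in the 67NR libraries, and 1 and 0 in the control libraries, or 3.85 and 3.32 CPM in 4T1 medium, at most 0.185 CPM in 67NR medium and at most 0.0519 CPM in control medium. The 4T1 level was 116 times the control level, with a 95% counting interval of 20.5 to 4638 (adjusted p 8.74e-06 by edgeR). It was 68.6 times without control replicate 2 (12.1 to 2731), and at least 16.0-fold without control replicate 1, which leaves 0 control counts. Against 67NR medium the fitted log2 fold change was 5.14 (SE 0.54, adjusted p 5.79e-06), and 4.22 without 67NR replicate 2. Tnfrsf9 entered the tests through 4T1 medium alone, the group where it was high. The T cell marker Cd3e had 0 counts in every library, and Ptprc (CD45) had 1 count in all 6.

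Tnfrsf13c (BAFF receptor), known as a survival receptor of B cells, had 0.338 and 0.599 CPM in 4T1 medium, 1.81 and 1.51 CPM in 67NR medium, and 1.30 and 2.08 CPM in control medium. It was lower in 4T1 medium, with a log2 fold change of -1.76 against control (SE 0.43, adjusted p 0.00581 by edgeR) and -1.77 against 67NR medium (SE 0.41, adjusted p 0.0036). The call against control was lost without control replicate 2 (adjusted p 0.0554, the highest over its alternatives). The summed leukocyte markers, mostly Lyz2, were also lowest in 4T1 medium. They had 3.32 to 3.38 CPM there, against 5.04 to 6.99 CPM in control medium. Their part in the Tnfrsf13c result was not tested. The BAFF gene Tnfsf13b had 4 and 6 counts in 4T1, 4 and 4 in 67NR, and 1 and 0 in control medium. Tnfrsf14 (HVEM), under 1 CPM on average in each medium, had 6 and 12 counts in 4T1, 22 and 10 in 67NR, and 2 and 0 in control medium. It was higher than control in both tumour media, 8.88 times in 4T1 (95% counting interval 2.13 to 78.9, adjusted p 0.0221) and 12.4 times in 67NR (3.17 to 107, adjusted p 0.00807). With the Wald test of DESeq2 the 4T1 call was lost (adjusted p 0.059). The 4T1 call was lost without 4T1 replicate 2 (0.123) and control replicate 2 (0.118), within 0.00435 to 0.123, and the 67NR call without 67NR replicate 1 (0.102) and control replicate 2 (0.0683), within 0.000216 to 0.102. Without control replicate 2 the ratios were 5.23 (1.25 to 46.5) in 4T1 and 7.31 (1.87 to 63.0) in 67NR medium, and without 67NR replicate 1 the 67NR ratio was 7.96 (1.70 to 74.7). Without control replicate 1, which leaves 0 control counts, they were at least 2.44-fold and 3.41-fold higher. No control library was over the filter cutoff, so Tnfrsf14 entered the tests through the tumour media. A repeat shared with other genes covers up to 13.7% of a Tnfrsf14 transcript, depending on the gene.

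The 3 decoy receptors did not move together. Tnfrsf11b fell in both tumour media, as given above, while the mouse TRAIL decoys Tnfrsf22 and Tnfrsf23 rose in 4T1 medium. Tnfrsf22 had 9.26 and 10.8 CPM in 4T1 medium, 5.93 and 5.50 CPM in 67NR medium, and 7.37 and 6.76 CPM in control medium. Tnfrsf23 had 13.3 and 12.4 CPM in 4T1 medium, 8.71 and 9.39 CPM in 67NR medium, and 9.92 and 10.4 CPM in control medium. For each gene the 4T1 libraries were the highest and the 67NR libraries the lowest. Over 67NR medium the log2 fold changes were 0.82 for Tnfrsf22 (SE 0.14, adjusted p 0.000469 by edgeR) and 0.50 for Tnfrsf23 (SE 0.12, adjusted p 0.00399). Over control they were 0.51 (SE 0.15, adjusted p 0.0146) and 0.34 (SE 0.12, adjusted p 0.042). With the Wald test of DESeq2 the Tnfrsf22 call over control was lost (adjusted p 0.0849). The Tnfrsf22 call over control was lost without 4T1 replicate 2 (adjusted p 0.107), control replicate 1 (0.0506) or control replicate 2 (0.0797), within 0.00709 to 0.107. That of Tnfrsf23 was lost in 10 of its 15 alternatives, within 0.0305 to 0.215, among them the fits without 4T1 replicate 1 (0.14), either 67NR library (0.0654 and 0.0657) and either control library (0.215 and 0.0926). The genes lie 16.1 kb apart on chromosome 7, and their transcripts shared no stretch of at least 75 bases at 95% identity. Stretches shared with 20 other genes cover up to 18.4% of a Tnfrsf22 transcript, depending on the gene.

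The remaining 22 members had too few counts to test, and 8 of them had 0 in all 6 libraries. These 8 were the ligands Tnf, Lta, Cd40lg, Cd70, Tnfsf14 and Tnfsf4 and the receptors Tnfrsf13b and Tnfrsf17. At this depth 0 counts in a group allow a level of up to 0.0905 CPM in 4T1, 0.0712 CPM in 67NR and 0.0917 CPM in control medium (3 counts over the group, for counting error only). The other 14 had 1 to 36 counts over all libraries. Cd40, the receptor of T cell help known from B cells and dendritic cells, had 5 and 4 counts in 4T1, 0 and 0 in 67NR, and 1 and 0 in control medium. Tnfrsf4 (OX40), a T cell costimulatory receptor, had 5 and 2 counts in 4T1, 10 and 10 in 67NR, and 4 and 5 in control medium. Tnfsf15 (TL1A) had 0 counts in both 4T1 libraries, 2 and 3 in 67NR, and 1 and 0 in control medium. Cd27, the receptor for CD70, had 2 and 4 counts in 4T1, 5 and 1 in 67NR, and 2 and 0 in control medium. Tnfrsf19 had 3 and 2 counts in 4T1, 0 in both 67NR libraries and 0 and 4 in control medium. Tnfsf8 had 2 counts in 1 library of 4T1 medium only, Tnfrsf8 and Tnfrsf26 had at most 1 count in any library, and the antisense transcript Tnfsf13os had at most 5.

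Promoter windows of 300 bases, from 250 before to 50 after an annotated start, were found for 18 of the 23 tested members in the RefSeq table of GRCm38.p6. They were searched on both strands for the NF-kB consensus, the AP-1 motif TGANTCA and the GAS motif TTCNNNGAA of STAT factors. A match to NF-kB was found in 2 of the 18 members, to AP-1 in 3 and to GAS in 6, while 8.459%, 7.813% and 8.294% of 32817 mouse windows hold them. The units differ, since a member counted if any of its windows held a match, while the shares are per window. The 18 members had 20 windows, and the NF-kB members, Tnfrsf9 and Tnfrsf25, had 2 each. Rises in 4T1 medium over control held in every alternative that gave a value for 6 members, and the windows of the 4 with the largest fitted rises, Tnfrsf9, Tnfsf11, Fas and Tnfrsf1a, are shown as examples chosen after their values were seen. Of the other 2, the Ltbr window holds none of the 3 motifs and the Tnfrsf1b window a GAS match. GAS was also matched in Tnfrsf18 and Tnfrsf25, and AP-1 in Tnfsf13, members that passed no test in any comparison. Sequences run 5′ to 3′ on the gene's strand, with matches in capitals. Tnfrsf9 has a pair of windows, of which the one at chr4:150927749-150928048 (plus strand) holds overlapping NF-kB matches ending at base 218, an AP-1 match at base 236 and a GAS match at base 115.
Tnfrsf9: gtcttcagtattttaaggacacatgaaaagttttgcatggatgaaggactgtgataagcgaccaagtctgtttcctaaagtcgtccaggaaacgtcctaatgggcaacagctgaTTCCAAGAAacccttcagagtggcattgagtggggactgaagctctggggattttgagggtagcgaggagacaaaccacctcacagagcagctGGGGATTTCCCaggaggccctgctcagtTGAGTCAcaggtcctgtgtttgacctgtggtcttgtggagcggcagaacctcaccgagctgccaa
Its other window, chr4:150919905-150920204, holds none of the 3. The Fas window, chr19:34290409-34290708 (plus strand), holds AP-1 at base 40 and GAS at base 158.
Fas: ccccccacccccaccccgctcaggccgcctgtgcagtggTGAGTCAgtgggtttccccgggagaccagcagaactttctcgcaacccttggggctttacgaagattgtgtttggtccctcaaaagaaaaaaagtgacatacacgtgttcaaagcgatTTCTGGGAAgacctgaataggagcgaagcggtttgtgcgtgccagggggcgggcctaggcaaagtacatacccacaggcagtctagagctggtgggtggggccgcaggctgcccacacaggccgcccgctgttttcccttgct
The Tnfrsf1a window, chr6:125349473-125349772 (plus strand), holds GAS at base 7.
Tnfrsf1a: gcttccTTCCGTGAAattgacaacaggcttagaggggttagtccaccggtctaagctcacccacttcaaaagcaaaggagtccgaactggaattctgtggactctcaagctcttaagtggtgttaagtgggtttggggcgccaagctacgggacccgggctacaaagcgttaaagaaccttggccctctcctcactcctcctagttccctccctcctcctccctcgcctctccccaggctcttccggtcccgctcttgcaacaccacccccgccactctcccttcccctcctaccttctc
The Tnfsf11 window, chr14:78307994-78308293 (minus strand), holds none of the 3 motifs.
Tnfsf11: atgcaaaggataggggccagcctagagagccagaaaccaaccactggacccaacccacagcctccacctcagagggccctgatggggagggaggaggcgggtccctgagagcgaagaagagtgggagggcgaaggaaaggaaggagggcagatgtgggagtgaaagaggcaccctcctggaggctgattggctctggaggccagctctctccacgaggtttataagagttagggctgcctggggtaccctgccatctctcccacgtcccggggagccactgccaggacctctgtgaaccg
A match describes letters in the window and is no evidence of binding.

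Downstream of the receptors, 53 genes for adaptors, kinases, NF-kB proteins, ubiquitin enzymes, death effectors and sheddases were listed, of which 50 were tested (Traf1, Edaradd and Ripk3 were not). In 4T1 medium against control, 23 were higher and 7 lower, 60.0% beside the 39.1% of all genes. In 67NR medium against control 9 were higher and 4 lower (26.0% beside 27.6%), and in 4T1 against 67NR medium 19 were higher and 7 lower (52.0% beside 43.4%). The median log2 fold changes were 0.14, 0.00 and 0.08 in these comparisons. The higher count of 4T1 against control was 15 without control replicate 1, and that of 67NR against control was 4 with DESeq2 and 3 to 11 with single libraries left out.

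Of the 8 NF-kB subunits and inhibitors, 6 were higher in 4T1 medium than in control, 2 in 67NR medium than in control and 7 in 4T1 than in 67NR medium, with none lower. These stand beside 19.9%, 13.0% and 23.5% of all genes higher. Over the alternatives the counts were 4 to 6, 1 to 2 and 5 to 8, and without control replicate 2 the first was 4 and 1 was lower in 67NR medium than in control. The count of 67NR medium against control was 1 without 67NR replicate 1, 67NR replicate 2 or control replicate 1. Relb, the subunit of the non-canonical pathway that Ltbr engages, had 34.9 and 32.9 CPM in 4T1 medium, 16.0 and 16.1 CPM in 67NR medium, and 11.7 and 13.0 CPM in control medium. Its log2 fold change was 1.46 for 4T1 against control (SE 0.10, adjusted p 1.02e-07 by edgeR) and 1.08 for 4T1 against 67NR medium (SE 0.09, adjusted p 7.69e-07). For 67NR against control it was 0.38 (adjusted p 0.0147), a call lost with DESeq2 (0.0614) and without 67NR replicate 1 (0.0825), 67NR replicate 2 (0.0862) or control replicate 1 (0.163), within a range of 0.00756 to 0.163. Nfkbia, the inhibitor that NF-kB itself induces, had 83.1 and 85.3 CPM in 4T1 medium, 51.8 and 53.6 CPM in 67NR medium, and 38.5 and 36.8 CPM in control medium. It rose by 1.16 in 4T1 medium (SE 0.07, adjusted p 5.13e-08) and by 0.48 in 67NR medium (SE 0.07, adjusted p 0.000321) against control. Tnfaip3 (A20), the ubiquitin-editing enzyme that restrains TNF receptor signalling and is itself known as an NF-kB target, moved in the opposite direction. It had 75.2 and 91.1 CPM in 4T1 medium, 152 and 157 CPM in 67NR medium, and 188 and 196 CPM in control medium. It fell by 1.21 on the log2 scale in 4T1 medium (SE 0.08, adjusted p 1.43e-07) and by 0.32 in 67NR medium (SE 0.08, adjusted p 0.0104) against control. The fall in 67NR medium was lost without 67NR replicate 1 (adjusted p 0.103), 67NR replicate 2 (0.0582) or control replicate 2 (0.0917), within a range of 0.00017 to 0.103. Nfkbia and Tnfaip3 thus moved in opposite directions in 4T1 medium.

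Map3k5 (ASK1), a stress kinase that TRAF2 binds, rose by 1.21 in 4T1 medium (SE 0.20, adjusted p 0.000343 by edgeR) and by 0.89 in 67NR medium (SE 0.20, adjusted p 0.00514) against control on the log2 scale. The 67NR call was lost without 67NR replicate 1 (adjusted p 0.0691, the highest over its alternatives). The adaptor Traf4 fell by 0.46 in 4T1 medium against control and by 0.42 against 67NR medium. The initiator caspase Casp8 fell by 0.38 in 4T1 medium against control (adjusted p 0.00442, and 0.0805 without control replicate 1, the highest over its alternatives). In 67NR medium against control the linear ubiquitin ligase Rnf31 rose by 0.47 (adjusted p 0.00119), while the BH3 protein Bid fell by 0.45 (adjusted p 0.00377). The Bid call was lost without 67NR replicate 2 (0.0661, the highest over its alternatives). In 4T1 against 67NR medium, the inhibitor Nfkbie rose by 0.89 (adjusted p 7.72e-05) and Rhbdf2, the cofactor of the TNF sheddase ADAM17, by 0.76 (adjusted p 5.47e-05), while the adaptor Traf5 fell by 0.70 (adjusted p 0.000897).

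**Figure D4:**
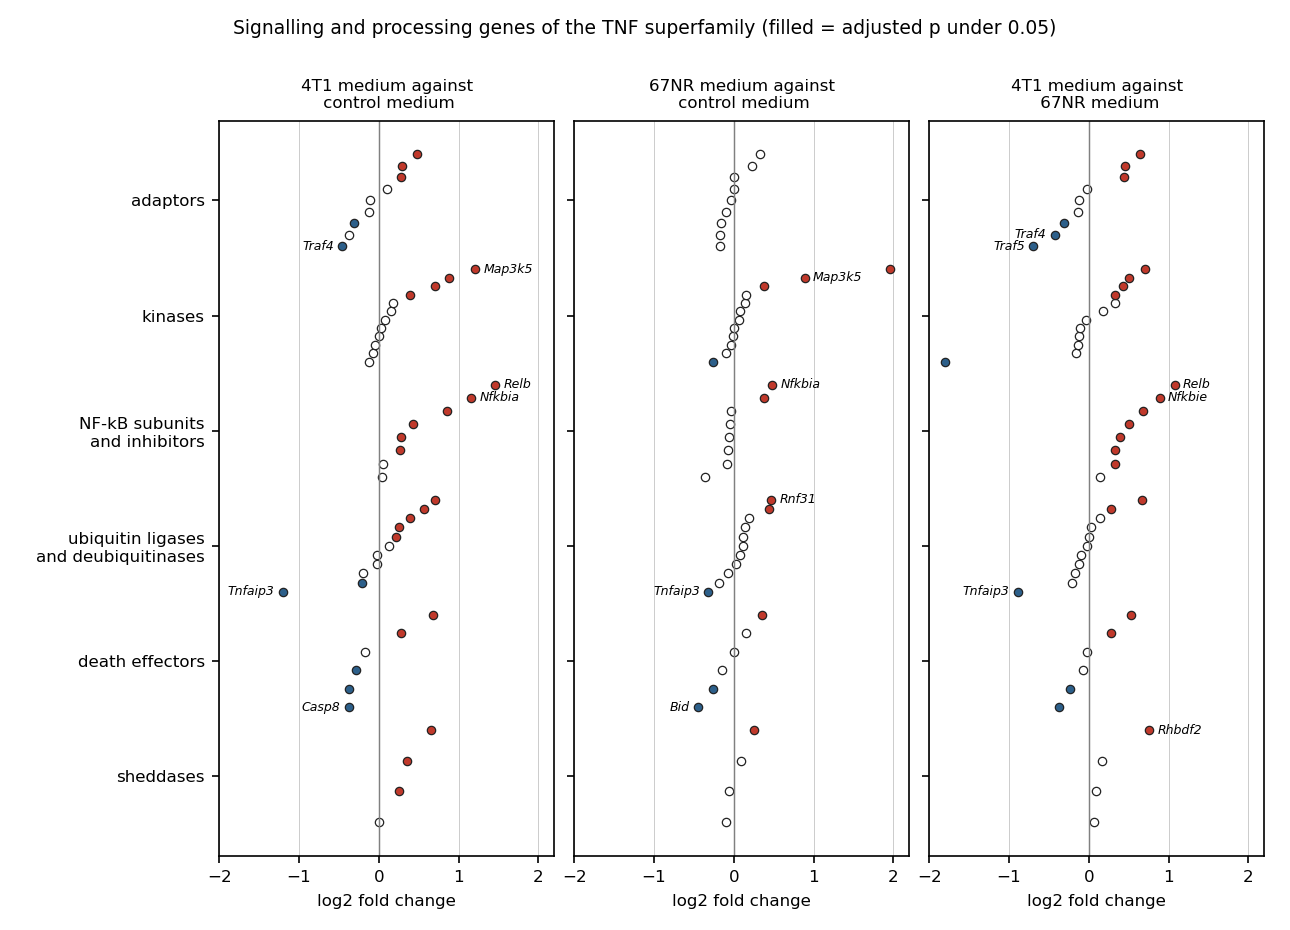
Log2 fold change of 50 signalling and processing genes in the 3 comparisons, 1 point per gene in 6 groups, filled red (higher) or blue (lower) where the adjusted p was under 0.05. Named points are among the 3 largest rises and falls at 1 CPM or more. Tnfaip3 is the farthest to the left among the named genes in the first and last panels, and Relb the farthest to the right.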

How the data were processed

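Per the labels' protocols, poly(A) RNA was selected from 500 ng of total RNA, made into directional libraries and sequenced on a NextSeq500. The deposited values are raw counts for each gene symbol, and the submitters' processing notes name Subread, mm10 and DESeq2 1.32.0. The strand setting is not given in the sources used here. The unfiltered count table was used, since Tnfrsf9 and Ngfr are not among the 14629 genes of the filtered one. Positions and exon lengths come from GENCODE M21 (GRCm38, the assembly of mm10), which held all 45 members, and promoters from RefSeq GRCm38.p6.

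Low genes were removed by edgeR 4.0.16 (filterByExpr, with 10 as minimum count and 15 as minimum total), and TMM factors were used for scaling. A quasi-likelihood fit of all 6 libraries gave log2 fold changes and F tests, with Benjamini-Hochberg adjustment over 15055 genes and a threshold of 0.05. A standard error is the absolute log2 fold change over the square root of F. CPM uses TMM-scaled totals of tested genes. Libraries of the same medium correlated at r of at least 0.995 and those of different media at no more than 0.984 over genes (log2(CPM + 1)), and the spread within a medium was 4.19 to 8.21 times counting noise, so no library was a copy of another. Counting intervals (95%) and limits of 3 counts cover counting error only.

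Members with an adjusted p under 0.05 in a comparison and a mean of at least 1 CPM in a medium are given in every library. Of the pathway list, the text names the 3 largest called rises and falls per comparison at 1 CPM or more, except for an item not reported here. Tnfrsf18, Tnfrsf14, Cd40 and other low members are given in counts or CPM by choice, after their values were seen. The members, the pathway and marker lists and the tests were chosen with earlier results of these data known. The 15 alternatives were scaling by DESeq2 size factors or by library totals alone, testing without a filter or on the filtered table's genes, the Wald test of DESeq2 1.42.0, limma-voom (limma 3.58.1), the replicate number as a block, the 2 groups compared alone, counts thinned to the smallest library, and each library left out. For single genes of the pathway list, the count of NF-kB genes, Relt, Edar and the count ratios of Tnfrsf9, Ngfr and Tnfrsf14, these alternatives were added after the data had been seen. Shared transcript stretches were found with BLAST 2.17.0. The fit was tested on simulated counts with 1 common dispersion for all genes. True log2 changes of 0.5 were recovered in 57.1% of cases for 4T1 against control. For 67NR against control the share was 60%, and for 4T1 against 67NR medium 69.5%. Members with small changes that passed no test may thus still differ. R 4.3.3, Python 3.11.15 and matplotlib 3.10.9 were used.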

Additional observations from a re-analysis of the deposited data

How the results depend on the processing

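No member changed sign with a call in any of the 15 alternatives. Fitted values changed sign for 10 of the 69 pairs of member and comparison, in 20 fits, none of them called either way. With the Wald test of DESeq2, 7 members were higher in 4T1 medium than in control instead of 14, and 4 genes of the pathway list were higher in 67NR medium than in control instead of 9. The cause was not tested. With single libraries left out, the members higher in 4T1 medium than in control numbered 7 to 13. In 67NR medium against control, 1 to 4 members were higher and 2 to 6 lower. Over all genes, 1891 to 2931 were higher in 4T1 medium than in control. In 67NR medium against control, 1043 to 2497 genes were higher and 1184 to 2840 lower. In the pathway list, 15 to 21 genes were higher in 4T1 medium than in control, 3 to 11 were higher and 0 to 6 lower in 67NR medium than in control, and 4 to 10 were lower in 4T1 than in 67NR medium. A library left alone in its group is assumed to vary like the others. Same-numbered libraries did not deviate together (r of 0.0862 for 4T1 and 67NR, 0.0246 for 4T1 and control, and -0.0477 for 67NR and control). No pairing by replicate number was thus seen, but 2 libraries a group cannot exclude a shared batch. With the replicate number as a block, member counts were 14 higher and 3 lower, 4 and 4, and 12 and 3 in the comparisons of 4T1 with control, 67NR with control and 4T1 with 67NR, equal to those without it. Over all genes they were 3091 and 2966, 2063 and 2319, and 3618 and 3050, and in the pathway list 22 and 7, 9 and 4, and 19 and 7. Members under about 1 CPM rest on few counts, so differences among them were often not detectable at this depth.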

Other observations

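Among further superfamily genes whose symbols follow no Tnf pattern (Eda, Edar and Relt), Eda had too few counts to test. Relt, a receptor known mainly from blood cells, had 13.1 and 17.2 CPM in 4T1 medium, 7.32 and 7.01 CPM in 67NR medium, and 9.55 and 7.73 CPM in control medium. It rose by 0.80 on the log2 scale over control (SE 0.15, adjusted p 0.00113 by edgeR) and by 1.09 over 67NR medium (SE 0.15, adjusted p 7.34e-05). Edar, the receptor for the A1 form of ectodysplasin, had 0.27 and 0.218 CPM in 4T1 medium, 1.02 and 1.85 CPM in 67NR medium, and 2.65 and 1.26 CPM in control medium. It fell in 4T1 medium, with a log2 fold change of -3.04 against control (SE 0.56, adjusted p 0.000878) and -2.53 against 67NR medium (SE 0.58, adjusted p 0.00339). Both genes were chosen with their values known.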
